A study of Mus musculus with 6 samples.

Results

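The small leucine-rich proteoglycans are secreted proteins that bind collagen fibrils, and 7 of their genes are described here: Dcn, Bgn and Aspn (decorin, biglycan and asporin), Lum, Fmod and Prelp (lumican, fibromodulin and prolargin), and Ogn (osteoglycin). They were taken by symbol from a deposited table of 24054 gene rows, in which all 7 had exactly 1 row, and each had a mean level above the minimum of 1 that a gene needed to be tested. The proteins consist of a curved array of leucine-rich repeats that docks on collagen, often with chondroitin, dermatan or keratan sulfate chains attached, and they regulate how thick collagen fibrils grow and how regularly they are spaced. Several also bind growth factors of the TGF-beta family, and soluble decorin and biglycan act on cell surface receptors, biglycan on Toll-like receptors. In lung they are made largely by fibroblasts and other mesenchymal cells of the airway and vessel walls and of the alveolar interstitium.

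RNA was sequenced from the lungs of female SCID mice, which lack mature B and T cells, 3 mice in each of 2 groups. In the Tsc1-null EV group the mice had been injected in the tail vein with labelled extracellular vesicles (EVs), membrane particles carrying CD9, CD63 and CD81, shed by Tsc1-null neural progenitors of mouse embryos at E15.5, where Tsc1 is a brake on the growth kinase mTORC1. In the WT EV group the vesicles came from wild-type progenitors of the same stage. All 6 mice then received rat ELT3 cells intravenously after 48 h, a line used to model lymphangioleiomyomatosis, and lungs were examined 72 h after that, so that the comparison asks how the lung differs with the genotype of the cells that shed the vesicles. The recipients of both groups were SCID, their age is not in the labels, and the number of progenitor cultures behind each vesicle preparation is not stated. Lungs without vesicles or without ELT3 cells were not analysed here.

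Levels are TMM-normalized CPM, reads scaled to a common library size, and differences are log2 folds ± SE from limma on value + 1, positive where Tsc1-null EV lungs were higher. The libraries held 5101413 to 9358820 reads assigned to genes. Replicate 1 of Tsc1-null EV and replicate 2 of WT EV stood apart, with median correlations to the other libraries of 0.942 and 0.963, against 0.980 to 0.982 in the rest. In these 2 libraries the nuclear RNA Malat1 stood at 30060 and 15673 CPM, against 1609 to 2819 CPM in the other 4. They also held the fewest reads, 5101413 and 6565182, against 8079325 to 9358820 in the rest. The ribosomal RNA Rn45s was highest in them, at 13776 and 10881 CPM, against 3293 to 6120 CPM in the rest. The surfactant gene Sftpc stood at 13095 to 29628 CPM in Tsc1-null EV lungs and 17290 to 22064 CPM in WT EV lungs, as lung tissue should show. The labels number the samples 1351 to 1353 in the Tsc1-null EV group and 1348 to 1350 in the WT EV group, so that group and any order of handling cannot be told apart. Samples are taken as separate mice, and if they were not, the p-values measure only technical spread. These are whole-lung RNA values, in which fewer cells of a type and less RNA per cell cannot be told apart.

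None of the 7 genes passed the test, and 6 of the 7 had a log2 fold below 0, against 52.7% of the 14159 genes tested. Ogn, Fmod and Dcn had the smallest unadjusted p (0.0496, 0.0696 and 0.0735), all at lower means in Tsc1-null EV lungs, and Dcn was lower in all 3. The type I and III collagen genes stood at higher means in that group, through replicates 2 and 3, whereas Ogn and Fmod were lowest in replicate 1. The median log2 fold was -0.32 over the 7 proteoglycans and -0.02 over all genes tested. With limma, 0 of 14159 genes passed at an adjusted p under 0.05 (0% called) and 930 (6.57%) had an unadjusted p under 0.05. edgeR called 0 genes and DESeq2 called 12 (0.0651%), and none of the 7 proteoglycans was among them. Groups that do not overlap were seen for 1 of the 7, which was Dcn, against 13.1% of all genes tested (6.86% higher and 6.22% lower), a share near that background. The count was 3 without Tsc1-null EV replicate 3, where 27.2% of all genes did not overlap. It was 2 when WT EV replicate 1 was left out (24.8% of all genes) and 2 when WT EV replicate 2 was (22.1%).

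**Figure D1:**
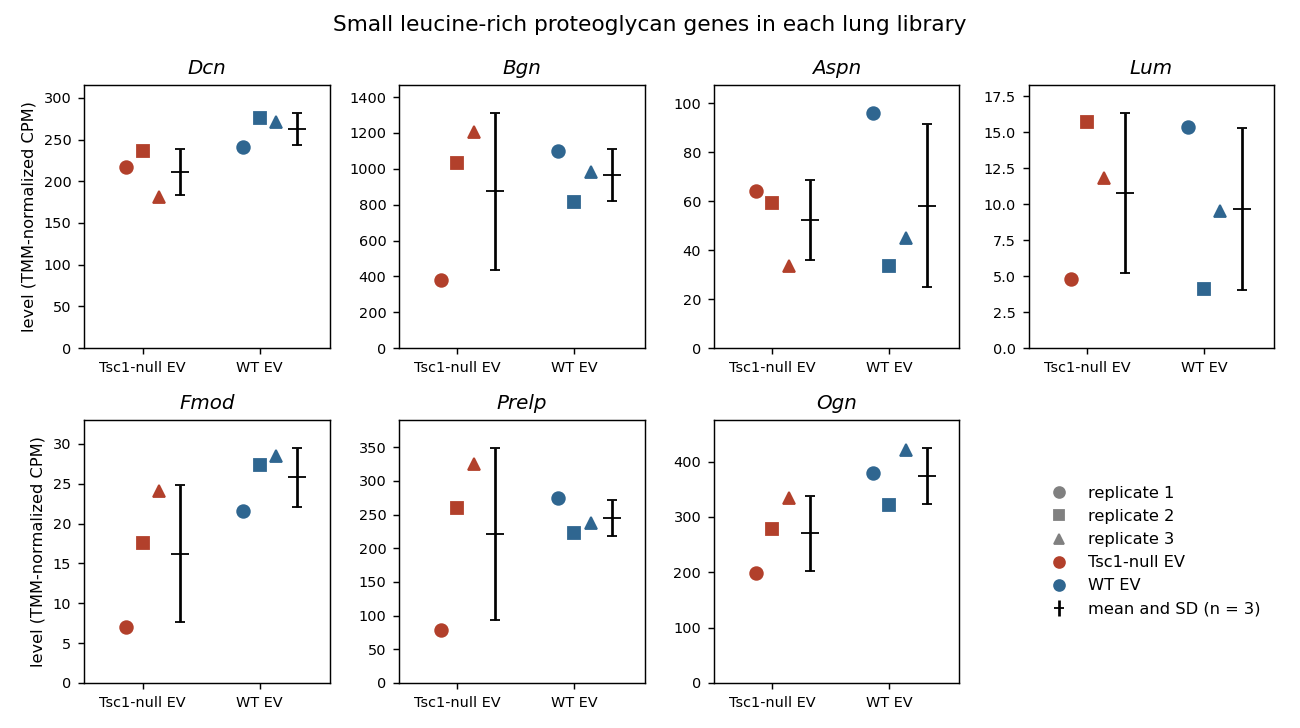
Level of each proteoglycan gene in TMM-normalized CPM (vertical axes, starting at 0, scaled per gene) in the 6 lung libraries, Tsc1-null EV in red and WT EV in blue, with marker shapes for replicates and a bar for the mean and SD of 3 mice. Only for Dcn do the groups not overlap, and Bgn, Prelp, Fmod and Ogn are lowest in Tsc1-null EV replicate 1.

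Dcn encodes decorin, a class I member that binds type I collagen and sequesters TGF-beta. It stood at 217, 236 and 182 CPM in Tsc1-null EV lungs, against 241, 276 and 271 CPM in WT EV lungs. Every Tsc1-null EV library lay below every WT EV library, by a small margin between 236 and 241 CPM. The means were 211 ± 27.6 CPM with Tsc1-null EV and 263 ± 18.9 CPM with WT EV (SD, n = 3 each), with a log2 fold of -0.32 ± 0.16 (limma adjusted p = 0.721). The lowest library was Tsc1-null EV replicate 3, which did not stand apart, and without the 2 libraries that did the log2 fold was -0.30 ± 0.15. Over the 18 alternative settings it ran from -0.40 to -0.21 with an adjusted p of 0.176 to 0.994, so the direction held throughout and the threshold was not reached.

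Bgn encodes biglycan, the nearest relative of decorin, which carries chondroitin or dermatan sulfate chains and can signal through Toll-like receptors when released. It stood at 380.5, 1035 and 1207 CPM in Tsc1-null EV lungs, against 1101, 813 and 979 CPM in WT EV lungs. Replicate 1 of Tsc1-null EV was low and the other 2 lay among or above the WT EV lungs. The log2 fold of -0.29 ± 0.40 (limma adjusted p = 0.905) turned to 0.22 without that library. Aspn encodes asporin, a class I member that lacks the usual attachment site for a sulfated chain and binds collagen and TGF-beta. Its levels were 63.9, 59.3 and 33.5 CPM with Tsc1-null EV and 95.9, 33.5 and 45.0 CPM with WT EV, so the lowest libraries of the groups were nearly equal. The log2 fold was -0.06 ± 0.38 (limma adjusted p = 0.982), and it turned to 0.22 without Tsc1-null EV replicate 3. With WT EV replicate 1 left out it stood at 0.36.

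Lumican, fibromodulin and prolargin form class II, whose members typically carry keratan sulfate or tyrosine sulfate. Fmod stood at 7.02, 17.6 and 24.1 CPM in Tsc1-null EV lungs, against 21.6, 27.3 and 28.5 CPM in WT EV lungs. Only the highest Tsc1-null EV library reached into the WT EV range. Its means were 16.2 ± 8.61 CPM with Tsc1-null EV and 25.8 ± 3.70 CPM with WT EV (SD, n = 3 each), and its log2 fold of -0.78 ± 0.38 was the farthest from 0 among the 7 (limma adjusted p = 0.721). Without Tsc1-null EV replicate 1, where it rested on 35 reads, the log2 fold was -0.30.

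Prelp, whose product anchors basement membranes to collagen and binds heparan sulfate, stood at 78.4, 259.5 and 325 CPM in Tsc1-null EV lungs, against 274, 222 and 238 CPM in WT EV lungs. As with Bgn, replicate 1 of Tsc1-null EV was low and the groups overlapped. The log2 fold of -0.37 ± 0.45 (limma adjusted p = 0.893) turned to 0.25 without that library. Lum, which limits the sideways growth of fibrils in cornea and skin, was the only one of the 7 with a log2 fold above 0, at 0.17 ± 0.49 (limma adjusted p = 0.965). It stood at 4.81, 15.7 and 11.8 CPM with Tsc1-null EV and 15.4, 4.12 and 9.50 CPM with WT EV, and the low library of each group was the one that stood apart. These values rest on 24, 146 and 107 reads in the Tsc1-null EV libraries and 126, 28 and 77 reads in the WT EV libraries. The log2 fold was -0.15 without Tsc1-null EV replicate 2. Leaving out WT EV replicate 2 gave -0.28.

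Ogn encodes osteoglycin, also called mimecan, a class III member that takes part in fibril assembly. It stood at 199, 278 and 334 CPM in Tsc1-null EV lungs, against 379.9, 321 and 422 CPM in WT EV lungs. The groups overlapped through 1 library on each side, since Tsc1-null EV replicate 3 at 334 CPM lay above WT EV replicate 2 at 321 CPM. The means were 270.5 ± 67.8 CPM with Tsc1-null EV and 374 ± 50.6 CPM with WT EV (SD, n = 3 each), with a log2 fold of -0.49 ± 0.21 (limma unadjusted p = 0.0496, adjusted p = 0.721). Ogn was the only one of the 7 with an unadjusted p under 0.05, against 2.97% of all genes tested that had such a p on the lower side. When limma weighted the libraries (0.213 for Tsc1-null EV replicate 1 up to 4.19 for WT EV replicate 3), Ogn passed at a log2 fold of -0.53 (adjusted p = 0.0298), but so did 7.42% of all genes, 3.3% lower and 4.12% higher. Without Tsc1-null EV replicate 1 the log2 fold of Ogn was -0.29. Its adjusted p over all settings ran from 0.0298 to 0.994, and the log2 fold was below 0 in all 19.

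Set per kilobase of the longest coding transcript, which is the scale on which different genes can be compared, the 7 genes kept a nearly fixed order. Bgn was highest in all 6 libraries, at 361 ± 180 CPM per kb with Tsc1-null EV and 399 ± 59.8 CPM per kb with WT EV. Dcn at 120.2 ± 15.7 CPM per kb with Tsc1-null EV and 149 ± 10.8 CPM per kb with WT EV and Ogn at 105 ± 26.4 CPM per kb with Tsc1-null EV and 146 ± 19.7 CPM per kb with WT EV followed, and these neighbours overlapped in both groups. Prelp stood at 61.2 ± 35.4 CPM per kb with Tsc1-null EV and 67.8 ± 7.37 CPM per kb with WT EV, overlapping with Ogn and with Aspn in Tsc1-null EV lungs and with neither in WT EV lungs. Aspn stood at 22.4 ± 7.05 CPM per kb with Tsc1-null EV and 25.0 ± 14.2 CPM per kb with WT EV. Fmod at 5.20 ± 2.76 CPM per kb with Tsc1-null EV and 8.27 ± 1.19 CPM per kb with WT EV and Lum at 4.41 ± 2.26 CPM per kb with Tsc1-null EV and 3.95 ± 2.30 CPM per kb with WT EV were the lowest, overlapping in Tsc1-null EV lungs. The level of an annotated transcript depends on which isoforms the authors' annotation held, which is not given in the sources used here.

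**Figure D2:**
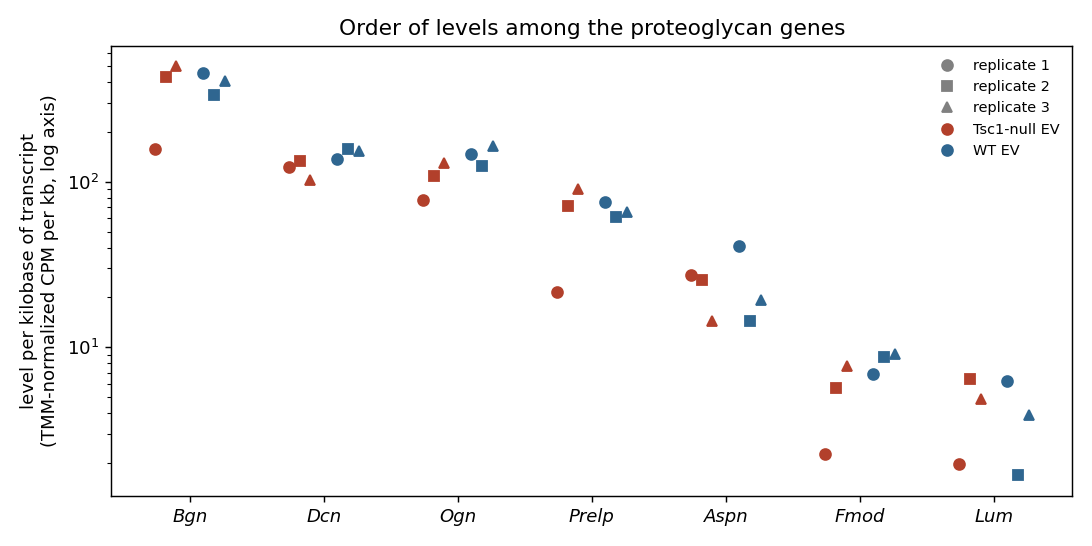
Level per kilobase of the longest coding transcript (log axis, TMM-normalized CPM per kb) for each proteoglycan gene in each library, ordered by the WT EV mean, Tsc1-null EV in red at the left of each gene and WT EV in blue. Bgn is highest in every library, and Fmod and Lum stand lowest.

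The fibrillar collagens are the ligands that these proteins coat. Of the 11 fibrillar collagen genes 8 were tested, 6 had a log2 fold above 0 and 0 passed, with a median of 0.52. The 2 below 0 were Col11a2 (-0.57 ± 0.36) and Col27a1 (-0.45 ± 0.38). Col1a1 stood at 146, 584 and 447 CPM in Tsc1-null EV lungs and 293, 153 and 300.2 CPM in WT EV lungs (log2 fold 0.50 ± 0.49). Col1a2 stood at 356, 995 and 854 CPM with Tsc1-null EV and 462, 252 and 501 CPM with WT EV (0.79 ± 0.41), and Col3a1 at 417, 1300 and 1021 CPM with Tsc1-null EV and 601, 266 and 593 CPM with WT EV (0.85 ± 0.46). For all 3 genes the low libraries of each group were those that stood apart, and the other 2 Tsc1-null EV lungs lay above every WT EV lung. Col5a3, a minor chain, stood above every WT EV lung in the Tsc1-null EV lungs, at 13.8 ± 2.91 CPM, against 6.44 ± 1.10 CPM with WT EV (log2 fold 0.99 ± 0.22, limma adjusted p = 0.721). The median of the list was 0.97 when Tsc1-null EV replicate 1 was left out, 0.26 when replicate 2 of that group was, and 0.34 when WT EV replicate 2 was.

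**Figure D3:**
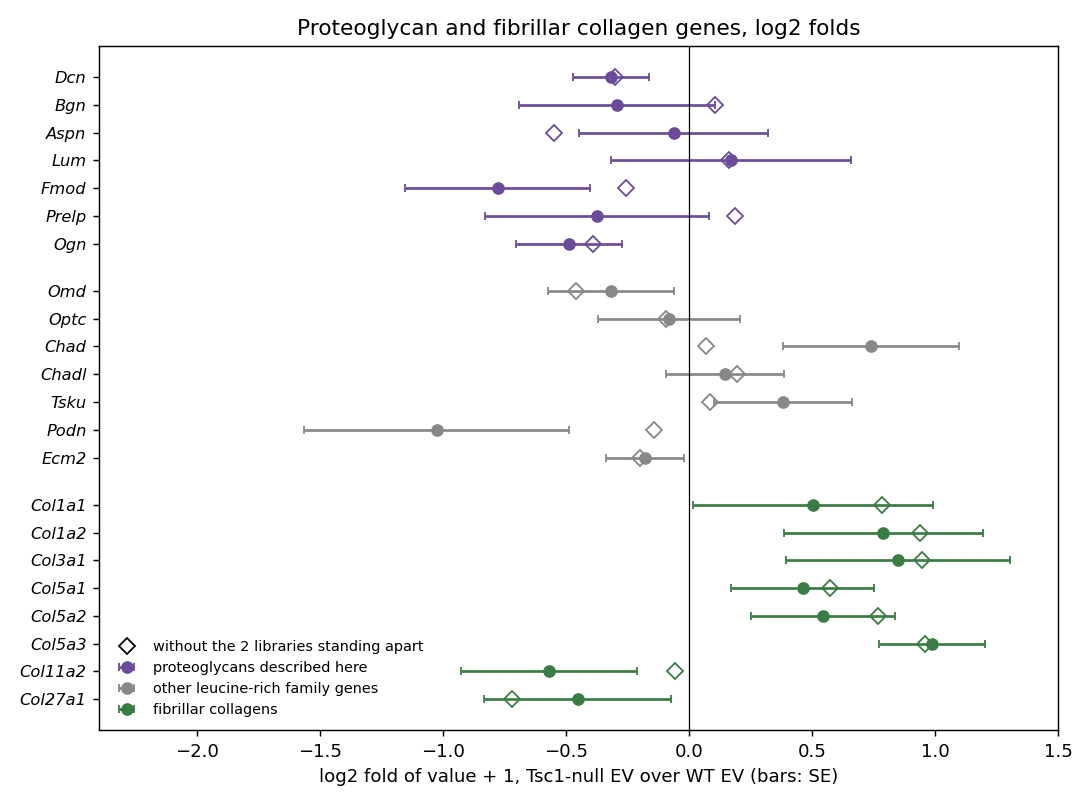
Log2 folds (horizontal axis, Tsc1-null EV over WT EV, bars for the SE) of the 7 proteoglycan genes, the other leucine-rich family genes tested and the fibrillar collagen genes tested, with open diamonds for the fit without the 2 libraries standing apart. Dcn and Ogn lie near -0.3 to -0.5 in both fits, the chains of types I, III and V lie between 0.46 and 0.99 with all 6 libraries, and Bgn and Prelp cross 0.

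Without the 2 libraries that stood apart, 25 genes passed with limma (0.177% of those tested), 12 higher and 13 lower, and Col1a2 (log2 fold 0.94, adjusted p = 0.0425) and Col3a1 (0.95, adjusted p = 0.0476) were among the higher ones. The adjusted p of Col1a2 and Col3a1 with all 6 libraries was 0.721 and 0.728. Mmp2, a gelatinase that also cleaves decorin and was named after its value was seen, passed as well at a log2 fold of 0.96 (adjusted p = 0.0281); with all 6 libraries it stood at 0.61 (adjusted p = 0.855). None of the 7 proteoglycans passed in that fit, where Dcn stood at -0.30, Ogn at -0.39, Aspn at -0.55 and Fmod at -0.26, and Bgn, Lum and Prelp at 0.11, 0.16 and 0.18. The groups of 2 and 2 did not overlap for 2 of the 7, Dcn and Ogn, both lower, against 21.5% of all genes on the lower side and 20.8% on the higher.

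To set each proteoglycan against the collagens within a library, the mean log2 value of Col1a1, Col1a2 and Col3a1 was subtracted from its own. That collagen level stood, relative to the WT EV mean, at -0.32, 1.39 and 1.07 in Tsc1-null EV lungs and 0.32, -0.68 and 0.36 in WT EV lungs (difference 0.71, exact permutation p = 0.30). Over the 6 libraries, Pearson's r with that level was 0.87 for Lum, 0.62 for Bgn and 0.56 for Prelp. It was 0.19 for Ogn, 0.18 for Fmod, 0.07 for Aspn and -0.48 for Dcn, and these r were not tested. The ratio differed downward for all 7 genes, but so it did for 97.6% of all genes tested, so the sign is shared with nearly every gene. The groups did not overlap in 5 of the 7 (Lum, Bgn, Ogn, Fmod and Prelp, all lower), against 7.92% of all genes lower and 0.0283% higher. That share is over all genes and not over other fibroblast or matrix genes, for which this ratio was not counted. The count of 5 is therefore not shown to be particular to the proteoglycans. Fmod had the widest difference, with log2 ratios relative to the WT EV mean of -1.42, -1.91 and -1.16 in Tsc1-null EV lungs and -0.55, 0.77 and -0.21 in WT EV lungs. Its difference was -1.49, followed by -1.20 for Ogn, -1.09 for Prelp, -1.01 for Bgn and -0.55 for Lum, each with an exact two-sided permutation p of 0.10, the smallest that 3 against 3 allows, and 0.14 when adjusted over the 7. Dcn had a difference of -1.03 (exact permutation p = 0.30) and Aspn of -0.78 (0.40), and in both genes the ratio of Tsc1-null EV replicate 1 lay within or above the WT EV range, at 0.04 for Dcn and 0.59 for Aspn. With the 2 libraries standing apart left out, all 7 ratios were lower in both Tsc1-null EV lungs, where 95.7% of all genes were too. Lum overlapped when Col1a1 alone was used, as did Ogn, and Col1a2 or Col3a1 on its own gave the same 5 genes without overlap. Against the mean of all 8 fibrillar collagen genes tested, Bgn, Ogn and Fmod did not overlap, against 21.5% of all genes lower without overlap, and Lum (difference -0.22, exact permutation p = 0.70) and Prelp (-0.76, exact permutation p = 0.20) did. The difference of Dcn ran from -1.57 without Tsc1-null EV replicate 1 to -0.66 without WT EV replicate 2. That of Aspn ran from -1.46 without Tsc1-null EV replicate 1 to -0.31 without Tsc1-null EV replicate 3, and it was -0.51 when WT EV replicate 1 was left out. That of Lum was -0.32 when WT EV replicate 1 was left out.

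**Figure D4:**
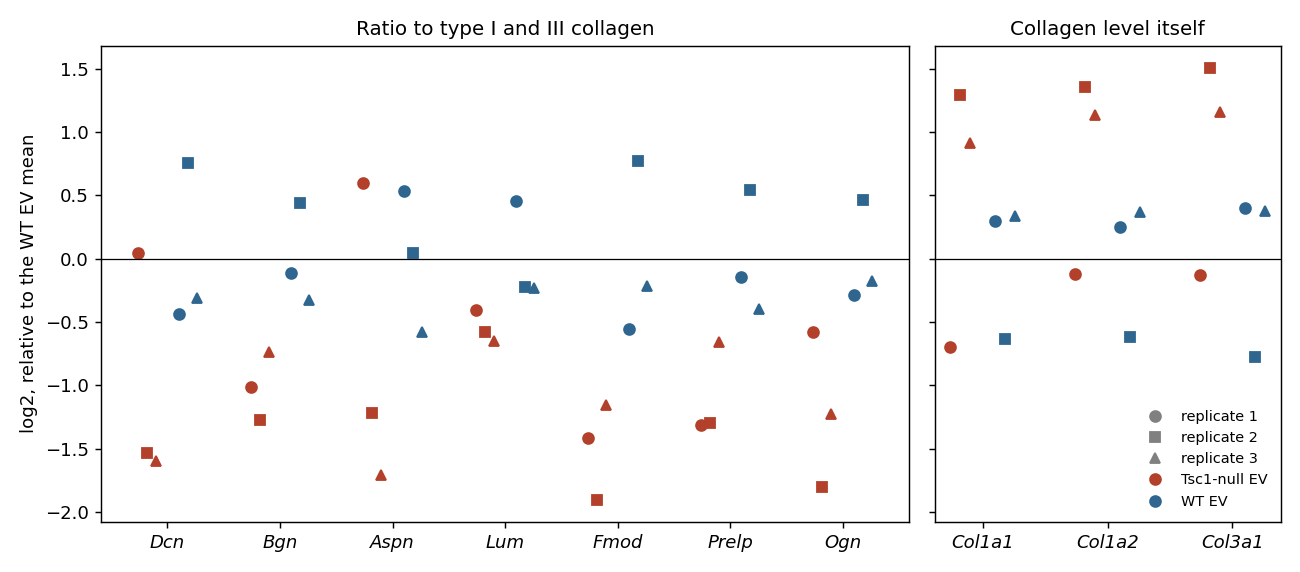
Left, log2 ratio of each proteoglycan gene to the mean of Col1a1, Col1a2 and Col3a1 in each library, relative to the WT EV mean; right, the log2 level of the 3 collagen genes on the same scale, Tsc1-null EV in red and WT EV in blue. Tsc1-null EV ratios lie below all WT EV ratios for Bgn, Lum, Fmod, Prelp and Ogn, and the collagen level is low in Tsc1-null EV replicate 1 and WT EV replicate 2.

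Bgn and Prelp had the same order over the 6 libraries. Pearson's r was 0.99 (exact permutation p = 0.00139, 0.0292 adjusted over 21 pairs) and Spearman's rho was 1.0 (exact permutation p = 0.00278, 0.0583 adjusted). Without the 2 libraries farthest from the median of Bgn, r was 0.99. An r this high was not particular to the pair. Lipa stood at r = 0.998 with Bgn and Arpp19 at 0.999 with Prelp, each the highest of 11268 genes. The share of all genes that were as alike was not counted. No other pair passed, with the next at r = 0.91 for Ogn and Fmod (exact permutation p = 0.0194, 0.204 adjusted), which was 0.44 without the 2 farthest libraries. Aspn was unlike Bgn and Prelp, at r = -0.16 and -0.24 (exact permutation p = 0.785 and 0.699). Bgn and Prelp lie on different chromosomes, and the bases before their starts of transcription are shown because their levels went together, with those of Aspn, whose levels did not. The sequences are the bases before the RefSeq start (GRCm38.p6) that lie in no annotated exon, written on the strand of the gene, at chrX:73483351-73483600 (plus strand), chr1:133921415-133921651 (minus strand) and chr13:49544193-49544442 (plus strand). Capitals mark the TATA box TATAAA and the GC box GGGCGG on either strand.
Bgn: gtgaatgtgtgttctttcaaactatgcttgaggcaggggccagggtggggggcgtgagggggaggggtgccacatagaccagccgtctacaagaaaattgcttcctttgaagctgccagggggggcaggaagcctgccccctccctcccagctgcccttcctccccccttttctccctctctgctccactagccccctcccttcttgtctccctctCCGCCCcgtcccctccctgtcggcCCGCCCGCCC
Prelp: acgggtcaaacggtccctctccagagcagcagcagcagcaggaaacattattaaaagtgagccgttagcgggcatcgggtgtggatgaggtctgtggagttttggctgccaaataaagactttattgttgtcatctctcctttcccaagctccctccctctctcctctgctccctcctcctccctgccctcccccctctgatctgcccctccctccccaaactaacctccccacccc
Aspn: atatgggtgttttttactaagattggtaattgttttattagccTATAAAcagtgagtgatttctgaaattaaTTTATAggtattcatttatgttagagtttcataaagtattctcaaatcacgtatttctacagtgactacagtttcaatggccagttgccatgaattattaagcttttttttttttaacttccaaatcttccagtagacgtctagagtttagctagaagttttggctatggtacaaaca
The Bgn stretch is 64.4% G or C and holds 3 GC boxes, the last 2 overlapping, and the Prelp stretch is 56.5% and holds none. The Aspn stretch is 30.0% G or C and holds 2 TATA boxes, 207 and 178 bases before the start. Among 32851 promoters of 250 bases, 32.7% hold a GC box and 12.4% a TATA box. An AP-1 site (TGANTCA, in 6.75% of promoters) and the SMAD palindrome GTCTAGAC (in 0.167%) were found in none of the 3 stretches. TATA boxes were not particular to Aspn among the 7 genes. The Ogn stretch, not printed, also holds 2 TATA boxes, 229 and 227 bases before the start, and the Fmod stretch, not printed, holds none of these motifs. A match is a string of letters and does not show binding. No promoter sequence was available for Dcn or Lum, so these are named only.

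The genes whose levels were most like each proteoglycan over the 6 libraries, out of 11268 with a mean of at least 5 CPM, were Lipa, Ecm1 and Pcdhga4 for Bgn, Arpp19, Ifih1 and Cd151 for Prelp, and Mbd3, Faim2 and Lrat for Fmod. They were Chst2, Kcns3 and Aplnr for Ogn, Gatm, Ap3b1 and Rtn3 for Lum, Casp1, Sacm1l and Mrpl34 for Aspn, and Rhot2, Ndufaf4 and Egln3 for Dcn. Pearson's r ran from 0.977 to 0.999 over these 21 choices, which is a description, since each is the highest of 11268 values from 6 libraries.

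Several of the 7 genes sit beside relatives of the same family. In genome build mm10 (GENCODE M21), Dcn lies at chr10:97479609-97518143 and Lum at chr10:97565128-97572703, both on the plus strand and 47.0 kb apart, followed by Kera and Epyc. Kera and Epyc, of cornea and cartilage, were under 1 CPM in every library. Prelp lies at chr1:133910304-133921414 on the minus strand and Fmod at chr1:134037254-134048277 on the plus strand, 116 kb apart, with Optc 2.31 kb from Prelp. Aspn lies at chr13:49544443-49567565 and Ogn at chr13:49608046-49624501, both on the plus strand, in a row with Ecm2 and Omd, and Bgn lies at chrX:73483602-73495933 on the plus strand. All 7 are protein-coding, and values are totals over each gene. In the row on chromosome 13 the log2 folds were -0.18 ± 0.16 for Ecm2, -0.06 ± 0.38 for Aspn, -0.32 ± 0.26 for Omd and -0.49 ± 0.21 for Ogn, none of which passed. Aspn and Ogn lie within Cenpp, a gene of the opposite strand that stood at 1.39 ± 0.616 CPM in Tsc1-null EV lungs and 0.955 ± 0.308 CPM in WT EV lungs and shares 7 exon bases with Aspn. Of the exon bases of Prelp 350 overlap the antisense gene Gm15851, and since the use of strand is not stated, reads there cannot be assigned with certainty. At most 0.111% of the 50-base words of the 7 genes (in Bgn) occur in another gene. Any reads that the ELT3 cells, being rat, gave to these genes were not separated from those of the mouse.

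Of 11 other leucine-rich genes of the family, 7 were tested, 3 above and 4 below 0, and 0 passed, with a median log2 fold of -0.08. Podn (podocan), a class V member that restrains smooth muscle growth in mouse, stood at 11.2, 41.7 and 68.2 CPM in Tsc1-null EV lungs and 63.3, 83.6 and 55.2 CPM in WT EV lungs. Its log2 fold was -1.03 ± 0.54 (limma adjusted p = 0.728), and -0.14 without the 2 libraries standing apart. Chad (chondroadherin), a class IV member of cartilage, stood at 101, 45.7 and 40.2 CPM with Tsc1-null EV and 42.3, 23.1 and 39.5 CPM with WT EV (0.74 ± 0.36, limma adjusted p = 0.721), and its log2 fold was 0.07 without the 2 libraries standing apart. For both genes the extreme libraries were those that stood apart. Other cartilage markers were low, with 8 of 10 under 1 CPM in every library and Lect1 and Col9a1 at 0.

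The enzymes that build the sulfated chains gave medians near or below 0. Of 6 linker enzymes tested 3 had a log2 fold above 0 and 3 below (median 0.02). Pxylp1, a phosphatase that acts on the linker xylose, had the smallest p of the list and stood higher, at 19.1 ± 4.71 CPM with Tsc1-null EV and 12.3 ± 2.85 CPM with WT EV, overlapping (log2 fold 0.59 ± 0.24, limma unadjusted p = 0.036, adjusted p = 0.721). Xylt2, which adds the first xylose, stood at 21.8 ± 0.733 CPM with Tsc1-null EV and 25.6 ± 0.697 CPM with WT EV, lower in all 3 (log2 fold -0.22 ± 0.14). Fam20b, the xylose kinase, was the highest at 76.6 ± 3.44 CPM with Tsc1-null EV and 77.3 ± 3.56 CPM with WT EV. Of 14 chondroitin and dermatan sulfate enzymes 4 were above and 10 below 0 (median -0.09), and 3 were lower in all 3 Tsc1-null EV lungs. These were Csgalnact1, which starts chondroitin chains, at 22.4 ± 0.196 CPM with Tsc1-null EV and 30.5 ± 3.37 CPM with WT EV (log2 fold -0.42 ± 0.15), Dsel, a dermatan sulfate epimerase, at 13.2 ± 4.61 CPM with Tsc1-null EV and 19.2 ± 1.72 CPM with WT EV, and the uronyl sulfotransferase Ust at 7.63 ± 3.14 CPM with Tsc1-null EV and 11.6 ± 0.790 CPM with WT EV. Of 7 keratan sulfate enzymes 6 were below 0 (median -0.27), with Chst2 at 38.7 ± 9.45 CPM with Tsc1-null EV and 50.9 ± 5.74 CPM with WT EV, overlapping. Only Chst5 of that list was lower in all 3, at low levels of 1.34 ± 0.334 CPM with Tsc1-null EV and 2.03 ± 0.102 CPM with WT EV. None of these enzymes passed with limma (adjusted p of 0.721 or more), and the background for groups lower without overlap is the 6.22% given above.

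Among 14 growth factors and receptors that the proteoglycans bind, 6 were above and 8 below 0 (median -0.02). Cd44, a hyaluronan receptor, had the smallest p, at 146 ± 18.9 CPM with Tsc1-null EV and 114 ± 27.3 CPM with WT EV, overlapping. Tgfb2 did not overlap, higher with Tsc1-null EV at 43.1 ± 3.09 CPM, against 36.9 ± 3.68 CPM with WT EV, and Bmp4 lower in all 3 at 102 ± 5.17 CPM, against 119 ± 2.41 CPM with WT EV. Of 11 proteases 6 were above 0 (median 0.10), with Adamts1 higher in all 3 at 88.7 ± 13.0 CPM with Tsc1-null EV and 68.5 ± 9.07 CPM with WT EV. Of 14 fibril-associated partners 9 were above 0 (median 0.16). Col6a3, a collagen VI chain, at 155 ± 24.2 CPM with Tsc1-null EV and 106 ± 10.4 CPM with WT EV and Fbln2, fibulin 2, at 37.3 ± 8.85 CPM with Tsc1-null EV and 22.0 ± 3.97 CPM with WT EV were higher in all 3, where 6.86% of all genes were. Col6a6, another collagen VI chain, named after its values were seen, was lower in all 3, at 1.13 ± 0.0656 CPM with Tsc1-null EV and 1.83 ± 0.843 CPM with WT EV. Fn1, fibronectin, stood at 403 ± 179.6 CPM with Tsc1-null EV and 286 ± 71.6 CPM with WT EV, and Eln, elastin, at 423 ± 225 CPM with Tsc1-null EV and 262 ± 16.0 CPM with WT EV, both overlapping. Of 13 collagen cross-linking and hydroxylating enzymes 11 were below 0 (median -0.12), with the collagen chaperone Serpinh1 at 498 ± 171 CPM with Tsc1-null EV and 655 ± 77.7 CPM with WT EV, overlapping. No gene of these 4 lists passed with limma in the fit of all 6 libraries.

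Marker sums of several cell types that make these proteins were lowest in Tsc1-null EV replicate 1. So were the endothelial, heart muscle, adipocyte, alveolar type 2 cell and macrophage sums, so the low was not particular to cells that make these proteins. The sum of 8 macrophage markers was 188 CPM there, against 222 to 372 CPM in the other libraries. The summed level of 10 adventitial fibroblast markers was 2316 CPM in Tsc1-null EV replicate 1 and 4099 and 4398 CPM in the other 2 of its group, against 3383 to 4099 CPM in WT EV lungs. The sum of 10 alveolar fibroblast markers was 4034 to 6524 CPM with Tsc1-null EV, lowest in replicate 1, and 5957 to 6701 CPM with WT EV, and 8 of the 10 had a log2 fold below 0. Not every marker of that list was low in Tsc1-null EV replicate 1. Tcf21, Inmt, Slc7a10 and Fgfr4 were lowest there, but Ces1d was highest there, at 1228 CPM. The sum of 8 pericyte markers was 351 to 696 CPM with Tsc1-null EV and 524 to 707 CPM with WT EV, that of 7 smooth muscle markers 1261 to 1973 CPM with Tsc1-null EV and 1519.6 to 1980.3 CPM with WT EV, and that of 6 myofibroblast markers, Aspn among them, 348 to 603 CPM with Tsc1-null EV and 335 to 591 CPM with WT EV. Mesothelial markers (8 of 9 in the table) summed to 237 to 701 CPM in Tsc1-null EV lungs and 638 to 1219 CPM in WT EV lungs, highest in WT EV replicate 2, and 7 of the 8 had a log2 fold below 0 (median -1.51). That median rested largely on the 2 libraries standing apart. Without both, the 8 log2 folds ran from -0.61 (Gpm6a) to 0.11 (Msln). The median ran from -1.99 to -0.63 when each library was left out. None of the markers in the fibroblast, myofibroblast, pericyte, smooth muscle and mesothelial lists was at 0 in every library. Bgn, Prelp, Fmod and Ogn were lowest in the same library as the fibroblast sums and the sums of other cell types named above. Dcn, Lum and Aspn were not. Without that library the log2 fold was -0.34 for Dcn, -0.30 for Fmod, -0.29 for Ogn and -0.23 for Aspn. It was 0.22 for Bgn, 0.25 for Prelp and 0.61 for Lum. The part of cell makeup in these values was not tested. Markers of other cell types mostly shared a sign within each list. All 7 heart muscle markers had a log2 fold below 0 (median -1.04), summing to 159.8 to 503 CPM with Tsc1-null EV and 393 to 658 CPM with WT EV. Of 7 adipocyte markers tested 6 were below 0 (median -1.02), with sums of 33.7 to 107.7 CPM with Tsc1-null EV and 47.5 to 287 CPM with WT EV. All 8 endothelial markers were below 0 (median -0.33), with sums of 1714 to 3164 CPM with Tsc1-null EV and 2559.9 to 3359 CPM with WT EV. Of 8 alveolar type 2 cell markers 7 were above 0 (median 0.35), with sums of 21429 to 42765 CPM with Tsc1-null EV and 24094 to 31768 CPM with WT EV. None of these markers passed with all 6 libraries. Without both libraries standing apart, the heart muscle marker Nppa passed with limma (log2 fold -2.92, adjusted p = 0.0425). It stood there at 3.23 and 0 CPM with Tsc1-null EV and 13.3 and 15.9 CPM with WT EV. The part of these markers in the proteoglycan values was not tested.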

How the data were processed

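The deposited table holds 24054 mouse gene rows in 6 lung libraries, 3 per group. Per the submitters' processing notes, Bowtie2 2.1.0, RSEM 1.2.15, edgeR and the build mm10 were used, without a stated order, and the annotation is not given in the sources used here. The deposited values are a signal, CPM scaled by TMM factors, as the table is named, and column totals were 964931 to 1022663. In each library at least 99.996% of values were whole multiples of 1 read (tolerance 0.001), which gave the reads used by edgeR and DESeq2. From the 5101413 to 9358820 reads per library, 1 read was worth 0.108 to 0.200 CPM.

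Genes with a mean of at least 1 (14159) were tested with limma 3.58.1 (R 4.3.3) on log2(value + 1) with an intensity trend and Benjamini-Hochberg adjustment at 0.05. A fold on this scale understates changes of low genes. edgeR 4.0.16 (quasi-likelihood) and DESeq2 1.42.0 were alternatives. Ratios to collagen were tested by exact two-sided permutation (20 splits). Of 27 rows named as dates and 4 with repeated symbols, none was a proteoglycan of interest. On simulated data for Tsc1-null EV against WT EV, limma (14038 genes) recovered 44% of changes of 1 and 95% of changes of 2 on the log2 scale, with 12 false calls. DESeq2 recovered 69% and 99%, with 33 false calls. Only genes with a mean of at least 5 were changed, and each gene was drawn independently. No simulated library stood apart, so these shares do not give the power in the real libraries.

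The genes and lists were chosen with earlier results of these data known. The naming rule allowed all 7 genes, family and collagen genes, of other lists up to 4 genes of smallest p and the highest by mean over both groups, and the 3 most alike genes for each proteoglycan; not all of these are reported. Mmp2, Col6a6, Msln and Sftpc lie outside it.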

Additional observations from a re-analysis of the deposited data

How the results depend on the processing

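The log2 folds of Dcn, Ogn and Fmod were below 0 in all 19 settings. The differences in ratio to collagen kept their sign in all 18 alternatives. That sign was shared by 97.6% of all genes tested in the main setting, so keeping it is not particular to the proteoglycans. Their size was not kept. With each library left out, Aspn ran from -1.46 to -0.31, Dcn from -1.57 to -0.66 and Lum from -0.66 to -0.32. Signs turned for Lum, from -0.28 to 0.61 when each library was left out (-0.15 without Tsc1-null EV replicate 2), and for Bgn, from -0.61 to 0.22. They also turned for Prelp, from -0.77 to 0.25, and for Aspn, from -0.38 to 0.36 (0.22 without Tsc1-null EV replicate 3). With sample weights Bgn stood at 0.043, Prelp at 0.074 and Aspn at 0.12, and without both libraries standing apart Bgn stood at 0.11 and Prelp at 0.18; the cause was not tested. Genes passing numbered 1050 with sample weights (583 higher, 467 lower), 12 with DESeq2 (7 higher, 5 lower), 25 without both libraries standing apart and 0 to 2 when each library was left out. The proteoglycans whose groups did not overlap numbered 2 without both libraries and 1 to 3 when each was left out, where fewer libraries make overlap rarer by construction. The median of the 7 ran from -0.61 to -0.23 when each library was left out. An added setting, the ratio to each collagen chain without both libraries, was chosen after seeing the data. No paired analysis was possible because the labels give the groups separate sample numbers. At 24 to 146 reads, counting error limits Lum most.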
